A study of Canis lupus familiaris with 8 samples.

Results

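TCF7 (ENSCAFG00000000990) and LEF1 (ENSCAFG00000011252) were followed through the T cells of canine blood. Both rows were taken by name from the deposited gene list, so that 2 of 20257 genes are described here. They encode TCF-1 and LEF-1, related HMG-box transcription factors that bind the same kind of DNA element, recruit Groucho-type TLE corepressors, and switch to activation when beta-catenin enters the nucleus in Wnt signalling. In T cells both factors act from the thymus onwards. Naive and central memory cells are known to keep them, effector cells are known to lower them, and TCF-1 is widely used as a mark of memory and exhausted-progenitor cells that can still renew themselves.

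The blood came from 4 healthy Beagle dogs, for which the labels name no treatment and the study's methods name routine vaccination only. Dog 1, the only female, was 5 years old, the males numbered 2 and 3 here were both 7, and the male numbered 4 was 9. T cells with a surface TCRαβ receptor were sorted after dead cells and doublets had been gated out, frozen, and later put through droplet-based transcriptome and V(D)J sequencing, which gave 1 library of each kind per dog. Every dog is 1 replicate, and cells are not replicates. All cells shared the sort on TCRαβ and the freezing step. The groups are gates on detected RNA.

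A cell with at least 1 unique molecular identifier (UMI, a tag that marks a single captured RNA molecule) of CD4 and none of CD8A was called CD4 single-positive (CD4 sp), and the reverse CD8A sp. CCR7, the lymph node homing receptor, GZMB, the cytotoxic protease granzyme B, and TOX, a transcription factor linked to exhaustion and to innate-like T cells, were used in the same manner as positive (+) or negative (-) gates. A cell without a UMI of a gate gene need not lack its RNA. The V(D)J libraries gave the T cell receptor beta (TRB) rearrangement of a cell, and cells of a library with the same V gene, J gene and junction formed a clone. Cells of a clone seen in at least 2 cells are called expanded, and those seen once singleton. Levels are given in CPM, the UMIs of the gene scaled to 1000000 UMIs of the summed group in each dog, not corrected for gene length, so levels are compared between groups and not between genes. In such a sum, fewer cells with the RNA and less RNA per cell cannot be told apart, and shares of cells with a UMI are given later.

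The 4 transcriptome libraries held 7428 to 8873 barcodes, of which 7096 to 8454 passed the limits on UMIs and mitochondrial share, 31909 in all, with a median of 3599 to 3932 UMIs per cell. Among them were 13247 CD4 sp and 6427 CD8A sp cells, and 11510 cells showed neither gene. CD3E was counted in 95.1% of cells, the B cell genes MS4A1 and CD79B in 0.621% and 0.150%, and PAX5 and the myeloid genes CSF1R and S100A12 had no UMI. The row named CD79A went against this, with a UMI in 98.8% of cells. Pairs of libraries shared 87 to 120 cell barcodes, none with the same TRB. Libraries 1 and 4 shared 56 TRB rearrangements, against at most 1 in every other pair of libraries. The 69 cells of library 1 with such a TRB had 72.2 CPM of LEF1 and GZMB in 28.99% of cells, whereas the remaining cells of library 1 had 605 CPM and 6.66%. Of the 69 cells 27 were CD8A sp, against 664 of the other 7027, so these values also reflect a different mix of lineages. Because of the shared TRBs all comparisons were also run without the 69 cells. This ended 1 call of LEF1, named with that comparison, and no call of TCF7.

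The levels of TCF7 and LEF1 were set out over 22 cell groups, some of which overlap. Only CD8A sp cells were gated on TOX among them. CCR7+ GZMB- TOX+ CD4 sp cells, not among the 22 groups, held 501 ± 16.5 CPM of TCF7 (SD, n = 4). Within the 22 groups TCF7 stood highest in the GZMB- CD8A sp cells with TOX. This held whether FCER1G, an adaptor of innate-like cells, was absent (468 ± 69.8 CPM, SD, n = 4) or present (3 dogs with at least 20 such cells, 525 ± 69.6 CPM). CCR7+ CD4 sp cells followed with 451 ± 29.5 CPM (SD, n = 4). These groups did not keep the same order in all dogs, while CCR7+ CD4 sp cells were above the SAMHD1+ CD4 sp cells next in order in 4 of 4 dogs. At the low end were FOXP3+ CD4 sp cells, the regulatory T cells, with 126 ± 13.4 CPM, GZMB+ CD8A sp cells with 103 ± 19.4, PDCD1+ CD8A sp cells with 81.1 ± 26.6 and the TRAV9-11 TRAJ28 CD8A sp cells, whose TRA chain is that of canine MAIT-like cells, with 65.9 ± 31.96 CPM (SD, n = 4 each).

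LEF1 was ordered differently. CCR7+ CD4 sp cells were at the top with 551 ± 194 CPM, above CCR7+ CD8A sp cells with 434 ± 166 CPM in 4 of 4 dogs, and SAMHD1+ CD4 sp cells held 378 ± 89.5 CPM (SD, n = 4 each). Of the groups at the top of TCF7, the FCER1G+ TOX+ GZMB- CD8A sp cells were low in LEF1, with 74.9 ± 35.8 CPM (SD, 3 dogs), while the FCER1G- cells held 265 ± 142 CPM (SD, n = 4). The FCER1G- value ran from 90.8 to 435 CPM over dogs, and neither group was gated on CCR7. Among GZMB- TOX+ CD8A sp cells LEF1 was at 521 ± 187 CPM with CCR7 and 108 ± 52.8 CPM without (SD, n = 4). The share of CCR7 in the FCER1G groups was not tested. FOXP3+ CD4 sp cells took place 19 in TCF7 but place 11 in LEF1, with LEF1 at 291, 207, 162 and 140.1 CPM in dogs 1, 2, 3 and 4. GATA3+ FOXP3- CD4 sp cells, marked by the Th2 regulator GATA3, had 333 ± 45.7 CPM of TCF7 and 351 ± 162 CPM of LEF1 (SD, n = 4). CD4 sp cells with KLRK1, the gene of the activating receptor NKG2D, were lower in LEF1, at 132 ± 50.1 CPM (SD, n = 4). The lowest LEF1 was that of expanded CCR7- GZMB- CD8A sp cells, at 42.8 ± 7.53 CPM, a group at place 5 of 22 in TCF7. Cells with MKI67, a gene of dividing cells, held 141 ± 11.2 CPM of TCF7 and 146 ± 33.2 CPM of LEF1. Where neighbours in the order changed places between dogs, their means cannot be ranked. This concerned most neighbours, since only 4 of 21 for TCF7 and 4 of 21 for LEF1 kept their order in all dogs compared.

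**Figure D1:**
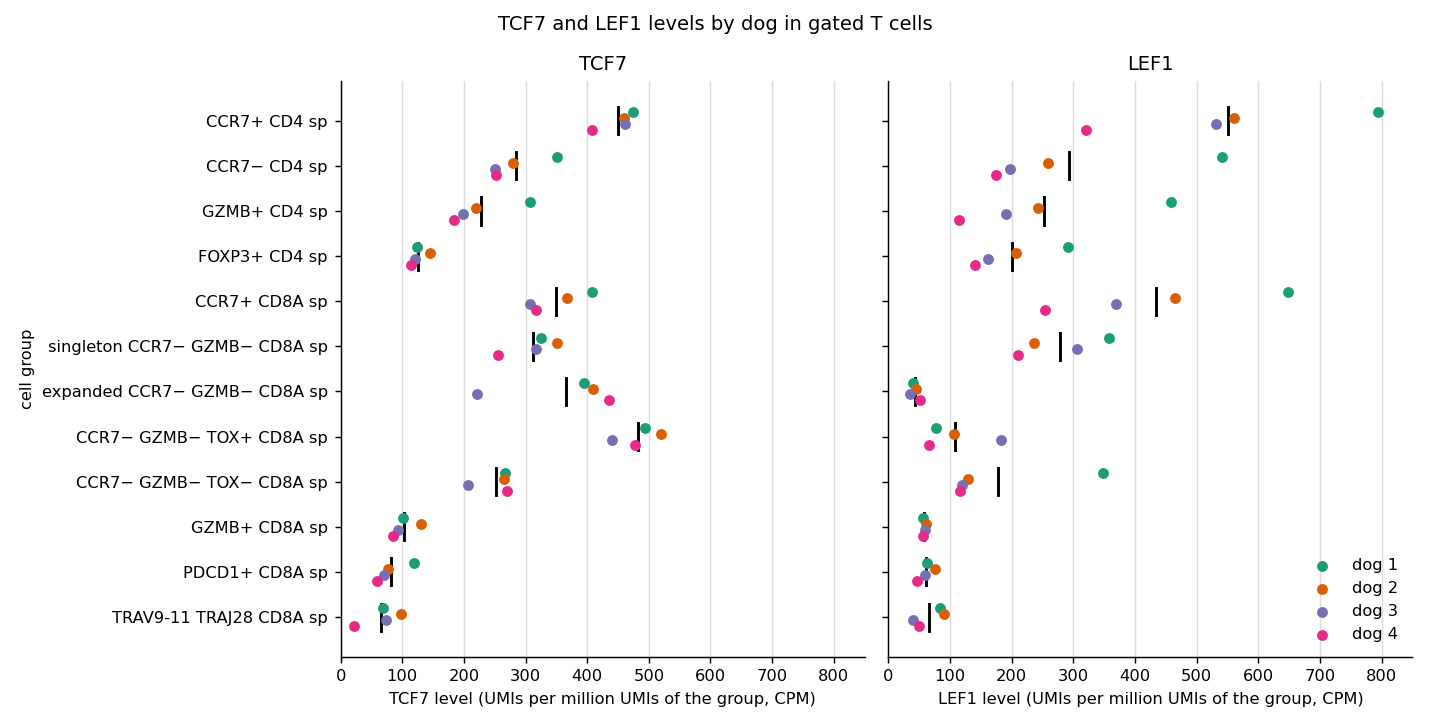
Levels of TCF7 (left) and LEF1 (right) in CPM, 1 point per dog and a bar at the mean of 4 dogs, in 12 cell groups. On average TCF7 is high in TOX+ and in expanded CCR7- GZMB- CD8A sp cells (means of 483 and 365 CPM), in which LEF1 is low (108 and 42.8 CPM). Dog 3 differs, with 221 CPM of TCF7 in its expanded cells against 317 CPM in its singletons. Its TOX+ cells also hold more LEF1 than its TOX- cells (183 against 119.6 CPM).

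The genes differed in how far the dogs stood apart. In CCR7+ CD4 sp cells TCF7 was at 474, 460.0, 461 and 407 CPM in dogs 1, 2, 3 and 4, and LEF1 at 793, 559.7, 532 and 319.7 CPM. The highest dog was thus 1.16 times the lowest for TCF7 and 2.48 times for LEF1, where the median over the 1362 genes with a mean of at least 100 CPM was 1.21. A larger ratio than that of LEF1 was seen in 2.13% of these genes. CCR7+ CD8A sp cells gave the same order of dogs for LEF1 (648, 465, 369 and 255 CPM). In GZMB+ CD8A sp cells, by contrast, LEF1 was at 55.3, 61.1, 59.9 and 55.6 CPM, 1.11 times from lowest to highest, so that the spread between dogs was not a constant factor over cell groups. Dog 1 was the youngest dog and the only female and dog 4 the oldest, so age, sex and library cannot be told apart in 4 dogs.

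CD4 sp cells contained more of both RNAs than CD8A sp cells. TCF7 was at 411, 357, 346 and 297 CPM in CD4 sp cells of dogs 1, 2, 3 and 4 and at 233, 242, 167 and 199 CPM in their CD8A sp cells. LEF1 was at 664, 388, 349 and 216 CPM and 204, 153, 126 and 78.6 CPM. The ranges of both genes lay apart between the lineages. The log2 fold change was 0.76 ± 0.14 (SE) for TCF7 (adjusted p = 0.00552, edgeR's quasi-likelihood test) and 1.56 ± 0.37 for LEF1 (adjusted p = 0.0202). Both members were among the 1428 of 10132 genes past an adjusted p of 0.05, 14.1% of the genes tested (2744 genes with the dog as a block). In fits without the block the call of LEF1 was lost without dog 2 (log2 fold change 1.63, adjusted p = 0.0957, edgeR) and without dog 3 (1.59, adjusted p = 0.0997). These fits leave the spread between dogs in the error, although both groups came from the same dogs. Within every dog LEF1 was higher in CD4 sp cells, and with the block and all dogs it passed (adjusted p = 3.42e-06, edgeR).

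Of 29 partners of these factors and Wnt pathway genes, 18 could be tested, 3 were higher in CD4 sp cells and 1 was lower, with a median log2 fold change of 0.15 against 0.0047 over all genes, of which 6.58% were higher and 7.51% lower. The p-values of listed genes are edgeR's adjusted ones, and those without a dog are given where the call was then lost. The higher ones were the corepressor genes TLE1, whose log2 fold change was 1.40 (adjusted p = 0.0482, 0.0878 to 0.22 without dog 1, 2 or 3, and also missed without the library 1 cells with a TRB of library 4), and TLE4, with 1.33 (adjusted p = 0.0391, 0.146 to 0.151 without dog 2 or 3), and the Wnt coreceptor gene LRP6, with 0.49 (adjusted p = 0.0299, 0.0755 to 0.151 without dog 2, 3 or 4). TLE3, a corepressor of the same family, was lower at -0.72 (adjusted p = 0.0238, 0.0505 to 0.135 without dog 1, 2 or 3). TCF7L1 and TCF7L2, the other members of the TCF family, had too few UMIs to be tested in any comparison. Of 18 naive and memory genes tested 8 were higher and 1 was lower (median 0.46), among them SAMHD1, a nucleotide hydrolase gene, with 2.50 (adjusted p = 0.000886), and ID3, an inhibitor of E proteins, with 1.97 (adjusted p = 0.000208). Effector genes went the other way, with 16 of 18 lower in CD4 sp cells and a median of -3.96.

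CCR7+ CD8A sp cells had more TCF7 and far more LEF1 than CCR7- CD8A sp cells. LEF1 was at 648, 465, 369 and 255 CPM in the CCR7+ and 113, 79.1, 74.1 and 66.6 CPM in the CCR7- cells of dogs 1, 2, 3 and 4. TCF7 was at 408, 367, 308 and 317 CPM and 197, 212, 137 and 191 CPM. No CCR7- value of either gene reached a CCR7+ value. The log2 fold changes of 2.50 ± 0.25 (SE) for LEF1 and 1.02 ± 0.14 for TCF7 passed edgeR's quasi-likelihood test with adjusted p = 0.000165 and 0.000857. In this comparison 764 of 8231 genes, 9.28%, passed (1379 with the dog as a block), and LEF1 ranked 12 and TCF7 60 by p-value. Both calls held in each of 13 alternatives.

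Among 15 tested partner and Wnt genes TLE4 was higher in CCR7+ CD8A sp cells, its log2 fold change being 2.54 (adjusted p = 0.000323), and TLE3 lower with -0.98 (adjusted p = 0.022, 0.0775 to 0.175 without dog 1, 2 or 3), where 4.59% of all genes were higher and 4.69% lower. Naive and memory genes were higher in 6 of 17, and none was lower in edgeR (1 at an unadjusted p under 0.05, 2 with the dog as a block). They were led by BACH2, a repressor that restrains effector genes, with 2.49 (adjusted p = 0.00285), and ID3, with 1.88 (adjusted p = 0.000165). Effector genes were lower in 16 of 18, among them FCER1G with -3.11 (adjusted p = 0.000165) and the granzyme gene GZMA with -3.01 (adjusted p = 0.00042). Of 8 exhaustion genes tested 4 were lower, such as the SLAM family receptor gene CD244 with -1.99 (adjusted p = 0.000577), while the inhibitory receptor gene CTLA4 was higher with 1.86 (adjusted p = 0.000195).

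The same gate was set in CD4 sp cells. TCF7 was at 474, 460.0, 461 and 407 CPM in the CCR7+ and 351, 280.4, 251 and 253 CPM in the CCR7- cells, higher in 4 of 4 dogs. LEF1 was at 793, 559.7, 532 and 319.7 CPM and 541, 259, 196 and 175 CPM, also higher in 4 of 4 dogs, but CCR7- cells of dog 1 exceeded CCR7+ cells of dogs 3 and 4. The log2 fold changes were 0.70 ± 0.12 (SE) for TCF7 and 0.94 ± 0.39 for LEF1, with adjusted p = 0.115 and 0.363 (edgeR), where 5 of 9676 genes passed, 0.0517%. When the dog was added as a block 2232 genes passed, and so did TCF7 (log2 fold change 0.71, adjusted p = 1.61e-07) and LEF1 (1.01, adjusted p = 7.77e-07). TCF7 also passed without dog 1 (0.80, adjusted p = 0.0125, edgeR).

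GZMB+ CD8A sp cells were low in both RNAs. TCF7 was at 101, 129.8, 93.8 and 85.1 CPM in GZMB+ and 391, 369, 279.8 and 379 CPM in GZMB- cells of dogs 1, 2, 3 and 4. LEF1 was at 55.3, 61.1, 59.9 and 55.6 CPM and 381, 259, 228 and 115 CPM. The GZMB+ cells of every dog were below the GZMB- cells of all dogs for both genes, and only the GZMB- cells varied widely in LEF1. TCF7 fell, its log2 fold change being -1.83 ± 0.13 (SE, adjusted p = 7.78e-05, edgeR) and ranked 3 of 8958 genes by p-value, and LEF1 changed by -2.10 ± 0.29 (adjusted p = 0.00191). Of all genes tested 673, 7.51%, passed (1614 with the dog as a block). The calls of both members held in all 13 alternatives.

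TLE4 was lower in GZMB+ CD8A sp cells as well, with -1.90 (adjusted p = 0.0181, 0.0546 to 0.1 without dog 1, 2 or 3), as was the beta-catenin cofactor gene BCL9, with -0.82 (adjusted p = 0.0412, 0.0856 to 0.221 without any 1 dog), while SMAD3, which carries TGF-beta signals, was higher with 0.73 (adjusted p = 0.025, 0.0544 to 0.12 without dog 2, 3 or 4) (log2 fold changes, edgeR). No other of the 15 tested partner and Wnt genes passed, and over all genes 4.04% were higher and 3.47% lower. The 2 of 16 naive and memory genes that fell were ID3, with -2.25 (adjusted p = 0.00027), and IL7R, the interleukin-7 receptor gene, with -1.59 (adjusted p = 0.0125, 0.0784 without dog 2), whereas the Krüppel-like factor gene KLF3 rose with 0.96 (adjusted p = 0.00787). Effector genes rose in 14 of 18, the granzyme gene GZMA with 4.11 (adjusted p = 0.00027) and the perforin gene PRF1 with 2.34 (adjusted p = 0.000801). Of 10 exhaustion genes 3 rose and 1 fell, among them PDCD1, the gene of the inhibitory receptor PD-1, with 2.20 (adjusted p = 0.00183), and CTLA4, with -1.70 (adjusted p = 0.0037).

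GZMB was detected in few CD4 sp cells, between 32 cells in dog 1 and 103 in dog 2. These cells had TCF7 at 308, 219, 199 and 183 CPM against 412, 363, 351 and 301 CPM in GZMB- CD4 sp cells, and LEF1 at 459, 243, 190.5 and 115 CPM against 666, 394, 354 and 220.0 CPM. Within each dog both genes were lower in the GZMB+ cells, but over all dogs the ranges of both genes overlapped. TCF7 fell, its log2 fold change being -0.74 ± 0.16 (SE, adjusted p = 0.037, edgeR), and LEF1 had -0.86 ± 0.39 (adjusted p = 0.302), with 2.0% of genes called (190 of 9502, and 911 with the dog as a block). With the block both passed, TCF7 at -0.72 (adjusted p = 3.3e-10, edgeR) and LEF1 at -0.78 (adjusted p = 9.76e-12). In fits without the block TCF7 missed the threshold without dog 2 (adjusted p = 0.296, edgeR), dog 3 (0.238) or dog 4 (0.0639). It was also missed after thinning to 2000 UMIs (-0.65, adjusted p = 0.451, dog 1 left out of the GZMB+ sums) and with at least 2 UMIs of GZMB (-2.80, adjusted p = 0.232), when dog 4 alone had 20 GZMB+ cells or more.

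Whether the gates acted alike in the lineages was tested as a difference of the log2 fold changes, CD4 sp minus CD8A sp. The difference for GZMB was 1.08 ± 0.22 (SE) for TCF7 (adjusted p = 0.0976, edgeR) and 1.24 ± 0.55 for LEF1 (adjusted p = 0.446), with 0.0427% of 9372 genes called. With the dog as a block both passed, TCF7 with 1.07 (adjusted p = 0.00134) and LEF1 with 1.12 (adjusted p = 0.033). For CCR7 the difference was -0.30 ± 0.20 for TCF7 (adjusted p = 0.831, edgeR) and -1.54 ± 0.51 for LEF1 (adjusted p = 0.409, with the block 0.0002), with 0.200% of genes called. In edgeR without the block neither member passed for either gate, while TCF7 passed for GZMB in DESeq2 (1.10, adjusted p = 0.00288) and with exactly 1 productive TRB per cell (1.15, adjusted p = 0.0309, edgeR). With at least 2 UMIs of GZMB, and so with the GZMB+ CD4 sp cells of dog 4 alone, the GZMB differences turned to -0.51 for TCF7 and -0.26 for LEF1.

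TCF7 was higher in TOX+ than in TOX- CD8A sp cells in 4 of 4 dogs, which was not so for LEF1. TOX+ CD8A sp cells had TCF7 at 372, 339.8, 215 and 328 CPM in dogs 1, 2, 3 and 4, and TOX- cells at 173, 195, 154 and 122 CPM. LEF1 was at 161, 142, 172 and 68.4 CPM and 223, 159, 114 and 84.8 CPM, lower in the TOX+ cells of 3 of 4 dogs. The TCF7 log2 fold change of 0.90 ± 0.17 (SE) had an adjusted p of 0.0914 (edgeR) where 14 of 8677 genes, 0.161%, passed, and an adjusted p of 0.000646 with the dog as a block (501 genes). It also passed without dog 3 (1.02, adjusted p = 0.0371, edgeR). For LEF1 the value was -0.16 ± 0.33 (adjusted p = 0.958).

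The same gate was then set inside the CCR7- GZMB- CD8A sp cells, so that naive and effector cells with a UMI of those genes were left out. TOX+ cells of this group held TCF7 at 494, 519, 439.9 and 477 CPM and TOX- cells at 267, 264, 207 and 269.6 CPM. The TOX+ values of all dogs lay within a narrow range above every TOX- value. TCF7 rose by 0.86 ± 0.11 (SE, adjusted p = 0.000846, edgeR) and ranked 4 of 7040 genes, of which 150 passed, 2.13% (319 with the dog as a block). LEF1 was at 76.8, 107, 183 and 65.9 CPM in TOX+ and 348, 129, 119.6 and 117 CPM in TOX- cells, lower in 3 dogs and higher in dog 3, the log2 fold change being -0.79 ± 0.37 (adjusted p = 0.402, edgeR). Thinning every cell to 2000 UMIs before gating brought TCF7 to 0.56 (adjusted p = 0.194, edgeR), with dog 1 then lower in the TOX+ cells (283 against 319 CPM) and the other dogs higher.

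No naive or memory gene other than TCF7 was called higher in these TOX+ cells by edgeR. Of 14 tested 4 fell and 0 rose (0 at an unadjusted p under 0.05, 0 with the dog as a block), with a median of -0.63 against -0.0011 over all genes, of which 0.895% were higher and 1.24% lower. Those that fell were the costimulatory receptor genes CD28, with -1.50 (adjusted p = 0.00413), and CD27, with -1.25 (adjusted p = 0.017, 0.0593 to 0.162 without dog 1 or 4), ID3, with -1.44 (adjusted p = 0.00413, 0.0518 to 0.0558 without dog 2 or 4), and KLF3, with -0.96 (adjusted p = 0.00337) (log2 fold changes, edgeR). Of 7 exhaustion genes CD244 rose with 1.86 (adjusted p = 0.00178) and IKZF2, encoding Helios, with 1.04 (adjusted p = 0.017, 0.0566 to 0.114 without dog 1, 2 or 3), while CTLA4 fell with -1.72 (adjusted p = 0.00178) and the orphan receptor gene NR4A1 with -1.06 (adjusted p = 0.0139, 0.0684 to 0.175 without dog 2 or 4). Among effector genes the cytokine gene IFNG rose with 2.40 (adjusted p = 0.0172, 0.124 without dog 2) while the granzyme gene GZMK fell with -1.52 (adjusted p = 0.0244, 0.0522 to 0.17 without dog 3 or 4), the T-box factor gene EOMES with -1.87 (adjusted p = 0.0447, 0.0765 to 0.385 without dog 2, 3 or 4) and the inhibitory receptor gene KLRG1 with -1.40 (adjusted p = 0.0118, 0.0615 to 0.0734 without dog 2 or 4), out of 18 tested. SMAD3 was the only partner or Wnt gene of 12 that passed, with -1.49 (adjusted p = 0.00858, 0.0611 without dog 2).

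In CD4 sp cells the TOX gate gave TCF7 at 412, 351, 382 and 319 CPM in TOX+ and 411, 359.7, 335 and 289 CPM in TOX- cells. LEF1 was at 646, 367, 379.6 and 200.5 CPM and 670.0, 396, 339 and 222 CPM. The groups overlapped in both genes, with log2 fold changes of 0.03 ± 0.14 and -0.07 ± 0.40 (SE, adjusted p = 1 for both, edgeR), and 1 of 9666 genes passed (0.0103%, 663 with the dog as a block). No direction is read from these values, since other settings turned them. In the CCR7+ GZMB- part of these cells TCF7 ran from 488 to 525 CPM over dogs with TOX and from 377 to 472 CPM without. In the CCR7- GZMB- part it was at 292 ± 38.8 and 287 ± 48.0 CPM (SD, n = 4). Neither part was tested. The difference between the lineages for TCF7, -0.86 ± 0.24, had an adjusted p of 0.973 (edgeR), of 0.0313 with the block and of 0.0145 with at least 2 UMIs of TOX. In that test 0 of 9559 genes passed in edgeR (0%), 372 had an unadjusted p under 0.05, 12 passed with the block and 1 in DESeq2.

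Expanded CD8A sp cells were low in LEF1, while TCF7 did not pass the same test. Expanded CD8A sp cells held LEF1 at 47.5, 56.3, 49.4 and 49.05 CPM in dogs 1, 2, 3 and 4, and singleton CD8A sp cells at 364, 280.2, 296 and 155 CPM. TCF7 was at 176, 233, 122 and 209.5 CPM in the expanded and 261, 276, 275 and 178 CPM in the singleton cells. LEF1 of expanded cells stayed in a narrow band far under every singleton value, while the TCF7 ranges overlapped and dog 4 had more TCF7 in its expanded cells. LEF1 fell, its log2 fold change being -2.50 ± 0.22 (SE, adjusted p = 0.000437, edgeR), rank 2 of 8289 genes, of which 88 passed (1.06%, 544 with the dog as a block). TCF7 had -0.49 ± 0.19 (adjusted p = 0.289) and did not pass in any of 13 alternatives.

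Since many expanded CD8A sp cells express GZMB, clone size was also compared among CCR7- GZMB- CD8A sp cells alone. Cells whose CCR7 or GZMB RNA went undetected stay in this gate, and their share among singleton and expanded cells was not tested. There LEF1 was at 40.2, 45.02, 34.1 and 51.9 CPM in 61, 188, 282 and 413 expanded cells of dogs 1 to 4, and at 358, 237, 306 and 211 CPM in the singleton cells. TCF7 was at 394, 409.7, 221 and 435 CPM and 325, 350.4, 317 and 255 CPM, higher in the expanded cells of 3 dogs and lower in dog 3. LEF1 changed by -2.73 ± 0.20 (SE, adjusted p = 6.36e-06, edgeR) and had the lowest p-value of the 6165 genes tested, of which 21 passed (0.341%, 86 with the dog as a block). TCF7 had 0.15 ± 0.17 (adjusted p = 0.863). Under the 13 alternatives LEF1 ranged from -2.98 to -2.55 and always passed.

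A check added after the data had been seen left out the largest expanded clone of each dog, picked over all CD8A sp cells. In dogs 1, 2 and 3 GZMB was detected in 92.3%, 91.7% and 95.9% of that clone, so few of its cells were in this gate. For these dogs the check thus cannot show whether the levels rest on clones that are large within the gate. The expanded CCR7- GZMB- CD8A sp cells left, 837 of 944, held 364 ± 96.5 CPM of TCF7 and 41.1 ± 6.80 CPM of LEF1. With the clone they held 365 ± 97.7 and 42.8 ± 7.53 CPM (SD, n = 4). Of 13 naive and memory genes tested there ID3, whose log2 fold change was -1.60 (adjusted p = 0.0461, 0.0539 to 0.24 without any 1 dog), and CD27, with -0.98 (adjusted p = 0.0376, 0.116 to 0.185 without dog 1, 2 or 4), were the 2 that fell in edgeR, where 0.292% of all genes were lower. In this gate 0 of 17 effector genes passed as higher in edgeR (median 0.50, 5 at an unadjusted p under 0.05, 2 with the dog as a block). Of all 6165 genes tested there 21 passed, 18 of them lower, so that 0 is no result about effector genes. In all CD8A sp cells TLE4 fell with expansion, with -2.43 (adjusted p = 0.00409, 0.0507 without dog 2), as did BACH2, with -2.22 (adjusted p = 0.0218, 0.0796 to 0.111 without dog 1 or 4), and ID3, with -2.21 (adjusted p = 0.00239).

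In CD4 sp cells both genes fell with expansion. TCF7 was at 250.1, 272, 213 and 264 CPM in expanded and 417, 401, 384 and 341 CPM in singleton cells, and LEF1 at 268, 146, 89.7 and 158 CPM and 682, 499, 425 and 275 CPM. The groups did not overlap in either gene. The log2 fold changes were -0.67 ± 0.10 (SE) for TCF7 (adjusted p = 0.00804, edgeR) and -1.64 ± 0.32 for LEF1 (adjusted p = 0.0207), with 500 of 9363 genes called (5.34%, 1459 with the dog as a block). Neither passed without dog 2 (adjusted p = 0.132 and 0.212, edgeR) or without dog 3 (0.066 and 0.111), in fits without the block. With the block and all dogs both passed, TCF7 at -0.64 (adjusted p = 9.4e-05, edgeR) and LEF1 at -1.55 (adjusted p = 4.32e-05). Dog 1 gave only 132 expanded CD4 sp cells against 477 to 1189 in the other dogs.

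Among CCR7- GZMB- CD4 sp cells TCF7 was at 205, 264, 199 and 245 CPM in expanded and 354, 305, 282 and 282 CPM in singleton cells. LEF1 was at 193, 133, 66.1 and 146 CPM and 559, 357, 256 and 215 CPM. Both genes were lower in the expanded cells of 4 of 4 dogs. LEF1 changed by -1.48 ± 0.32 (SE, adjusted p = 0.0487, edgeR), at the edge of the threshold, and missed it without the library 1 cells that carry a TRB of library 4 (-1.48, adjusted p = 0.0563), without dog 2 (0.363), dog 3 (0.138) or dog 4 (0.0744). With the dog as a block LEF1 had -1.30 (adjusted p = 5.36e-06, edgeR). TCF7 had -0.44 ± 0.11 (adjusted p = 0.0892, with the block 0.00419), and 1.05% of genes were called (93 of 8816, 597 with the block). In all CD4 sp cells 6 of 17 naive and memory genes fell with expansion, where 2.36% of all genes fell, among them the kinase gene TXK, with -2.0 (adjusted p = 0.00569, 0.0577 to 0.106 without dog 2 or 3), and of the partner genes TLE4, with -1.47 (adjusted p = 0.0207, 0.101 to 0.222 without dog 2 or 3), and BCL9L, with -0.61 (adjusted p = 0.0209, 0.0922 to 0.235 without dog 2 or 3) (log2 fold changes, edgeR). The difference of the expansion contrast between the lineages, CD4 sp minus CD8A sp, was -0.17 ± 0.23 (SE) for TCF7 (adjusted p = 0.996, edgeR) and 0.86 ± 0.43 for LEF1 (adjusted p = 0.849), with 0.0107% of genes called, so that neither passed.

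By clone size LEF1 of CD8A sp cells was low in small clones as well as in larger ones. Clone sizes are compared between cells, and no course in time was measured. CD8A sp cells of clones of 2 to 4 cells held 60.8, 66.5, 42.2 and 54.6 CPM of LEF1, and those of clones of 5 or more cells 39.2, 51.6, 51.4 and 47.6 CPM. TCF7 in the same cells was at 166, 166, 152 and 164 CPM and 182, 264, 113 and 222 CPM. TCF7 was thus alike across dogs in small clones and spread out in the larger ones, higher than in small clones in dogs 1, 2 and 4 and lower in dog 3.

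**Figure D2:**
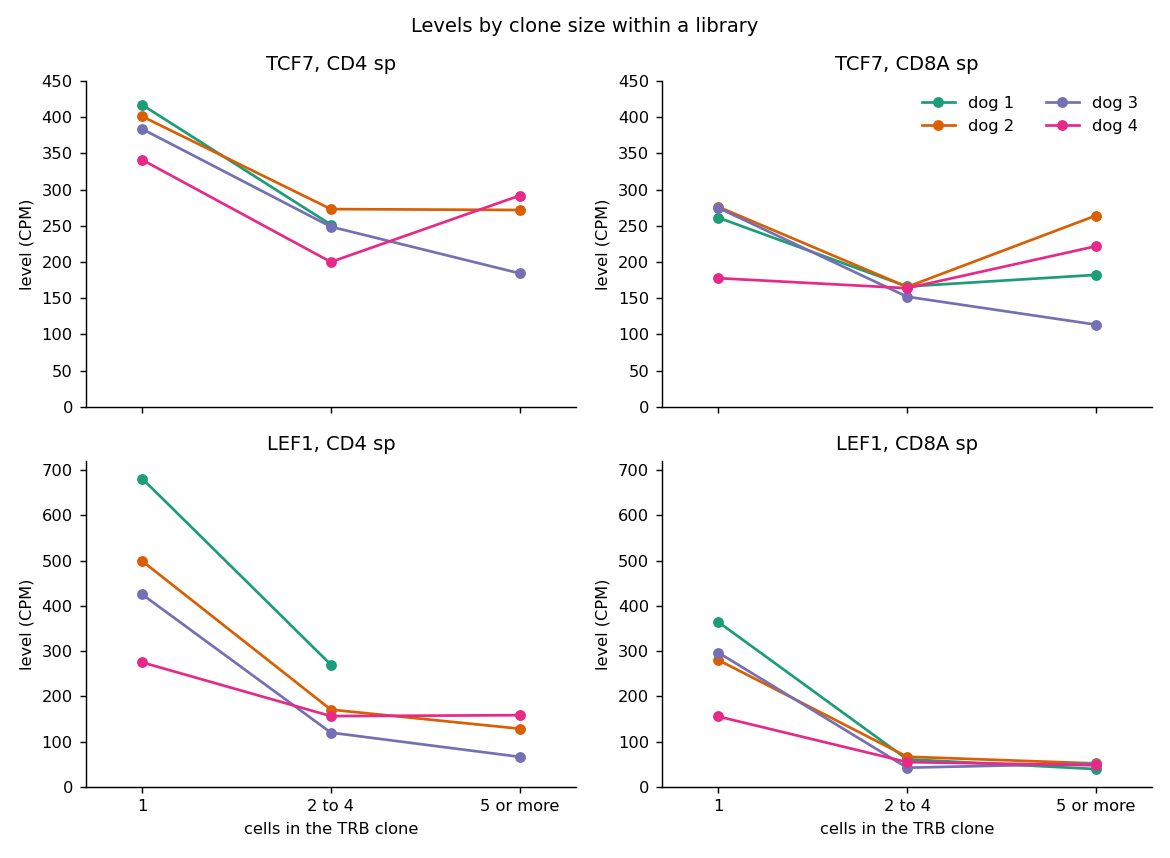
Levels in CPM (y axis) against the number of cells in the TRB clone within a library (x axis), 1 line per dog, for TCF7 (top) and LEF1 (bottom) in CD4 sp (left) and CD8A sp cells (right). LEF1 in CD8A sp cells lies at 155 to 364 CPM in singletons and at 42.2 to 66.5 CPM in clones of 2 to 4 cells, and dog 1 has no point for CD4 sp clones of 5 or more cells, having only 1 such cell.

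In 45 clones at least 20 cells of a lineage were sequenced, and each clone is described on its own. A floor of 3 counts stood at 5.41 to 46.2 CPM in the 31 CD8A sp clones, where the median of LEF1 was 37.5 CPM. LEF1 levels of many of these clones thus rest on few UMIs. Members of a clone share a TRB rearrangement and are taken to descend from the same cell, so a clone is 1 observation. The TRA chain was not used to define clones. The junctions of 5 CD8A sp clones, chosen after their values were seen, are given here 5′ to 3′, from the codon of the conserved cysteine to that of the conserved phenylalanine, with these codons in capitals, as read in the V(D)J libraries.
Dog 4 CD8A sp TRBV3-1 TRBJ2-1: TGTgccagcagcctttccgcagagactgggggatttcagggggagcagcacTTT
Dog 2 CD8A sp TRBV24 TRBJ1-3: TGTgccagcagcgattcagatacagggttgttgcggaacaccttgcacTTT
Dog 4 CD8A sp TRBV7 TRBJ2-5: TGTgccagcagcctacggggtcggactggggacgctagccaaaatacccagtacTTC
Dog 3 CD8A sp TRBV5-2 TRBJ1-2: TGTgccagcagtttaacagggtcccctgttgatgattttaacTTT
Dog 3 CD8A sp TRBV18 TRBJ1-1: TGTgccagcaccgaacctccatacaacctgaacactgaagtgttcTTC

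The TRBV3-1 TRBJ2-1 clone was the largest CD8A sp clone of dog 4, and its 119 CD8A sp cells held 227 UMIs of TCF7 (454 CPM) and 28 of LEF1 (56.01 CPM). TOX was detected in 79.8%, GZMB in 20.2% and FCER1G in 100% of them. No LEF1 UMI was seen in the TRBV24 TRBJ1-3 clone of dog 2, where 22 cells held 91 UMIs of TCF7, or in the TRBV7 TRBJ2-5 clone of dog 4, where 21 cells held 48. A count of 0 still allows up to 25.4 and 30.6 CPM of LEF1 at the depth of these clones. Other clones high in TCF7, whose junctions are not shown, held more LEF1. The TRBV26 TRBJ1-6 clone of dog 2 had 542 CPM of TCF7 and 131 CPM of LEF1. The TRBV3-1 TRBJ1-6 clone of dog 4 had 544 and 89.4 CPM.

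The largest CD8A sp clone of the series, TRBV5-2 TRBJ1-2 of dog 3 with 146 CD8A sp cells, had GZMB in 95.9% of cells, with 110.0 CPM of TCF7 and 112 CPM of LEF1, where the median over the 31 CD8A sp clones was 61.6 and 37.5 CPM. In the TRBV18 TRBJ1-1 clone of the same dog, with 26 cells that were all GZMB+, neither gene had a UMI, which allows up to 37.6 CPM.

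Over the 14 CD4 sp clones TCF7 ranged from 154 to 662 CPM (median 328) and LEF1 from 8.42 to 257 (median 137). The 31 CD8A sp clones were split by GZMB, with the limit of 50% of cells chosen after the values had been seen. The 7 clones with GZMB in under 50% of their cells, from 3 dogs, had TCF7 between 139 and 772 CPM, and the other 24, from 4 dogs, between 0 and 132 CPM. LEF1 spanned much the same range in both sets, 0 to 131 and 0 to 135 CPM, with medians of 56.0 and 32.7 CPM. In these sets 3 of 7 and 5 of 24 clones had no UMI of it. TOX was detected in a median of 79.8% of cells in the former clones (2.94% to 100%) and 15.7% in the latter (0% to 53.3%).

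**Figure D3:**
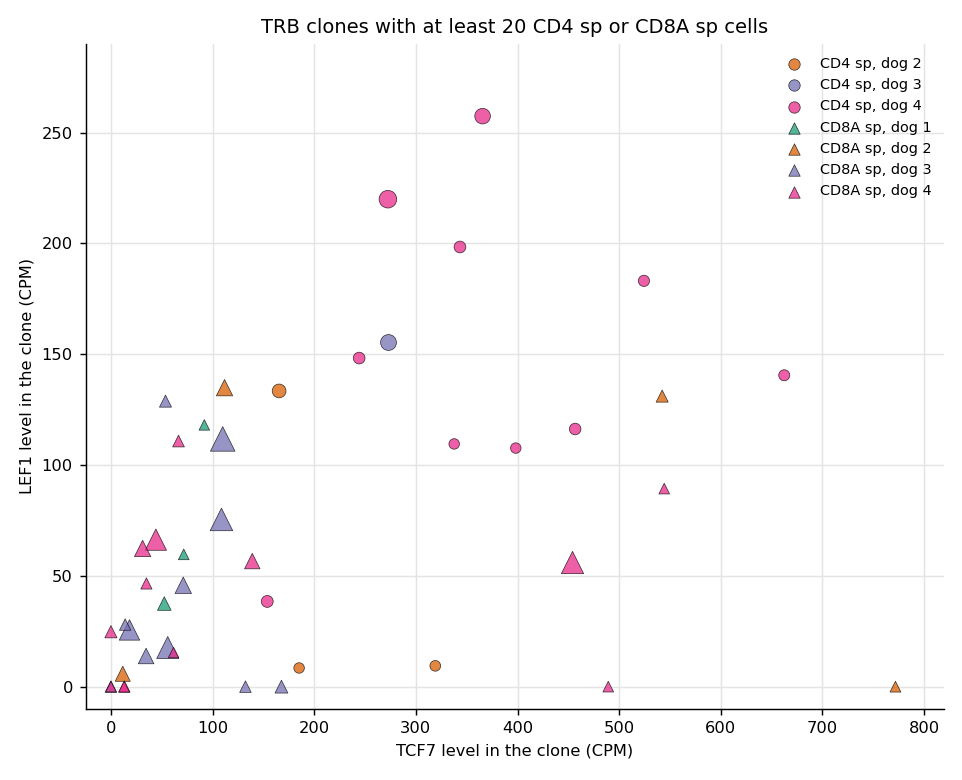
Level of TCF7 (x axis) against LEF1 (y axis), both in CPM, in each of 45 TRB clones with at least 20 CD4 sp cells (circles) or CD8A sp cells (triangles), with the symbol area growing with the number of cells and the colour giving the dog. CD8A sp clones lie under 135 CPM of LEF1 or at it, whatever their TCF7, which reaches 772 CPM.

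The folds of the genes were also compared directly, as the log2 fold of LEF1 minus that of TCF7 within each dog. The difference was 1.40 ± 0.28 (SD, n = 4) for CCR7 in CD8A sp cells and 0.74 ± 0.22 between CD4 sp and CD8A sp cells, so that LEF1 had the larger fold. With expansion it was -1.93 ± 0.40 in CD8A sp, -2.83 ± 0.34 in CCR7- GZMB- CD8A sp and -0.91 ± 0.46 in CD4 sp cells. In each of these comparisons the difference had the same sign in 4 of 4 dogs, for which an exact two-sided sign-flip test gave p = 0.13, the smallest value that 4 dogs allow. Of the 12 comparisons computed none could fall below that value, and none can pass after adjustment. Across the GZMB gate the mean difference was -0.10 ± 0.10 in CD4 sp and -0.16 ± 0.87 in CD8A sp cells, with 1 dog of the opposite sign in each. In CD8A sp cells this sign was not stable, since the difference was 0.49 after thinning to 2000 UMIs and 0.063 without dog 1. Thinning lowered the difference for CCR7 in CD8A sp cells to 0.91.

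**Figure D4:**
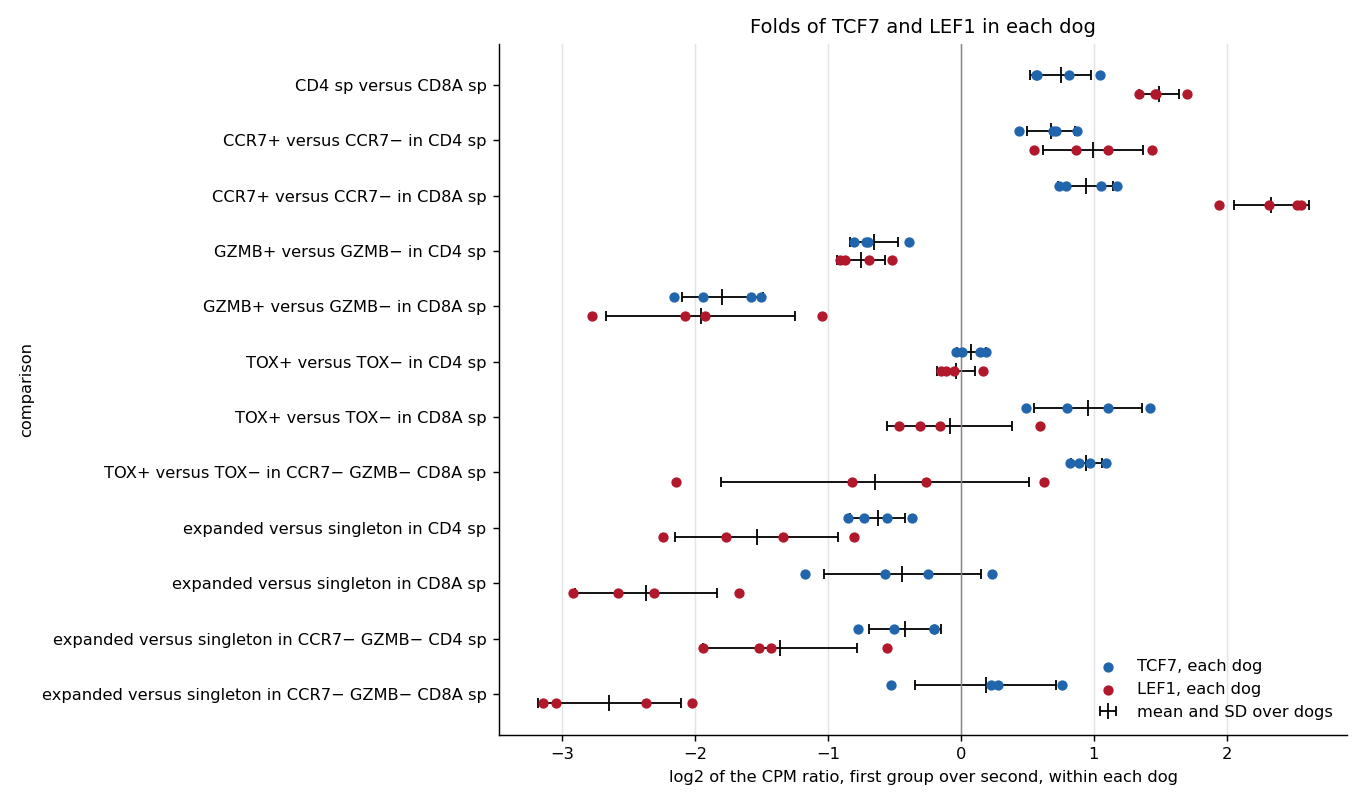
Log2 ratio of CPM between the groups of 12 comparisons within each dog, TCF7 in blue and LEF1 in red, with the mean and SD over 4 dogs in black. For expansion in CCR7- GZMB- CD8A sp cells LEF1 lies far to the left of 0 in every dog, while TCF7 lies around 0, a mean difference of -2.83.

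Levels of a group do not show whether the RNAs lie in the same cells, so detection was scored per cell after thinning each cell to 2000 UMIs, which left out 4749 shallower cells. Both genes were detected in 36.2% ± 7.67 of CCR7+ CD4 sp cells and 26.02% ± 7.68 of CCR7+ CD8A sp cells (SD, n = 4). In CCR7- GZMB- TOX+ CD8A sp cells 44.5% ± 4.38 had TCF7 without LEF1 and 8.17% ± 3.83 had both. Expanded CCR7- GZMB- CD8A sp cells had TCF7 alone in 39.8% ± 6.13 and both in 4.64% ± 1.81, whereas singleton cells of that gate had 21.8% ± 7.82 and 18.1% ± 3.95.

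Put otherwise, LEF1 was found in 63.2% ± 11.9 of TCF7-positive CCR7+ CD4 sp cells but in 10.3% ± 3.29 of TCF7-positive expanded CCR7- GZMB- CD8A sp cells. Without thinning these shares were 80.9% ± 8.57 and 16.5% ± 2.92. In TCF7-negative cells of the same groups LEF1 was found in 55.4% ± 13.4 and 7.00% ± 2.45 after thinning (SD, n = 4). Between these groups the share with LEF1 thus differed far more than by TCF7 detection within them. Some other groups, also thinned, differed more by TCF7 detection. LEF1 was found in 48.5% of TCF7-positive and 24.2% of TCF7-negative singleton CD8A sp cells. In GZMB+ CD4 sp cells these shares were 50.3% and 24.96%. Only in CCR7- GZMB- TOX+ CD8A sp cells was the order reversed, with 15.4% and 16.6% (means of 4 dogs). No cell type known to lack these genes was sorted, so a background share was not measured. For comparison, in GZMB+ CD8A sp cells, one of the low groups, 79.1% ± 1.37 had neither gene, 9.33% ± 0.286 had LEF1 and 13.5% ± 1.86 had TCF7. LEF1 in expanded CCR7- GZMB- CD8A sp cells, at 8.44% ± 2.82, was near the share in GZMB+ CD8A sp cells, while TCF7, at 44.4% ± 7.28, was above it. The median depth before thinning was 3511 UMIs in the GZMB+ and 4352 in the expanded cells.

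**Figure D5:**
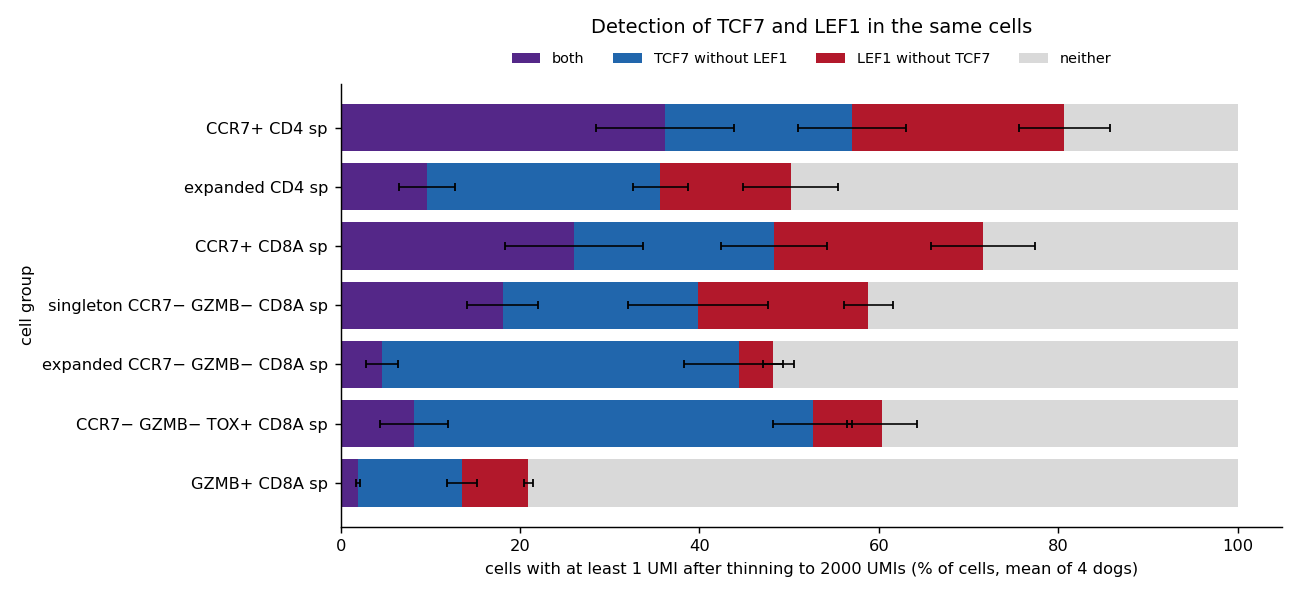
Share of cells (x axis, % of cells, mean of 4 dogs, error bars SD) with both genes, TCF7 alone, LEF1 alone or neither after thinning to 2000 UMIs, in 7 cell groups. The share with both falls from 36.2% in CCR7+ CD4 sp to 1.94% in GZMB+ CD8A sp cells, and TCF7 alone is widest in CCR7- GZMB- TOX+ CD8A sp cells.

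The genes with the most similar course were read from the 10 groups made by lineage, CCR7, GZMB and TOX with at least 20 cells in every dog, as the mean over dogs of Pearson's r of log2(CPM + 10). This is a description over groups that share libraries and depth, without a test. For TCF7 they were NAPEPLD (0.92), CDCA7L (0.91), CAMK4 (0.91), SPTBN1 (0.90) and SPINT2 (0.90), and for LEF1 ACTN1 (0.98), FAM241A (0.96), TRIM22 (0.96), CTPS1 (0.96) and CSTA (0.96), out of 5495 genes. CAMK4 is a calcium/calmodulin-dependent kinase gene, SPTBN1 and ACTN1 encode the cytoskeletal proteins beta-spectrin and alpha-actinin, and CTPS1 makes the nucleotide CTP in dividing lymphocytes. The 5 genes of TCF7 and those of LEF1 had none in common. LEF1 took rank 52 in likeness to TCF7 and TCF7 rank 216 in likeness to LEF1, with a mean r of 0.750 between them.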

How the data were processed

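Gene-by-cell matrices and V(D)J contig tables of 4 dogs were used, 8 libraries in all. The deposited matrices hold raw counts of UMIs, which the authors made with Cell Ranger 5.0.1 from 5′ reads aligned to the dog genome CanFam 3.1. The deposited V(D)J tables hold productive contigs with their UMI counts. Since the gene list deposited for dog 1 held 27980 entries and its matrix 20257 rows, rows were named by the list common to the other libraries. Cells with 500 to 20000 UMIs and at most 10% mitochondrial UMIs were kept, and doublets were not called beyond the authors' sort gates. Cells with no TRB or several were left out of the clone comparisons only. UMIs were summed per dog and gate, sums of under 20 cells were dropped, and gate genes were left out of their own tests. Sums were tested with edgeR 4.0.16 (quasi-likelihood, TMM scaling, low counts filtered, Benjamini-Hochberg adjustment, R 4.3.3) on the groups compared, with every dog as 1 replicate. Animals were the same in all gates. In the pairing check same-dog deviations correlated at 0.0968 to 0.893 over 12 comparisons, against at most 0.0834 between dogs, and the fit with the dog as a block was run as an alternative.

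Further alternatives were DESeq2 1.42.0, its size factors in edgeR, no filter on low counts, cells thinned to 2000 UMIs, no mitochondrial limit, exactly 1 TRB per cell, several TRBs kept, at least 2 UMIs at the gate or 5 cells per clone, leaving out each dog, and, added after seeing the data, leaving out library 1 cells with a TRB of library 4. Clone size counts cells within 1 library, so it depends on how many cells were sequenced. Floors for a count of 0 (3 counts) cover counting error only. The edgeR fit without the block was run on simulated sums for the GZMB gate in CD8A sp cells. These sums held no effect of the dog, and no other fit was simulated. TCF7, LEF1, the gates and the lists of partner, naive, effector and exhaustion genes were chosen with earlier results of these data known. Listed genes were named from the 4 with the largest absolute fold among those past the threshold with the same direction in all dogs, and of the likeness ranking the first 5 with at least 20 CPM. Clones shown were chosen after their values were seen. Some genes and clones are not reported here. CTNNBIP1, AES, GSK3A, KLF2, NKG7, ID2 and BATF had no single row. Python 3.11.15, NumPy 2.4.6, pandas 2.3.3, SciPy 1.17.1 and Matplotlib 3.10.9 were used.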

Additional observations from a re-analysis of the deposited data

Results flagged for a closer look

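Levels, folds within a dog and differences of folds were screened by Dixon's criterion at the 95% level, in 134 sets of 4 dogs. In 6 sets, all of them levels, 1 dog lay apart from the others. Chance alone gives this in about 1 of 20 independent sets, but many of these sets share cells. TCF7 in cells with both CD4 and CD8A was at 293 CPM in dog 1 and at 229 to 239 in the others. In CCR7- GZMB- TOX- CD8A sp cells TCF7 was at 207 CPM in dog 3 against 264 to 269.6, and LEF1 was at 348 CPM in dog 1 against 117 to 129. TCF7 of singleton CD8A sp cells was at 178 CPM in dog 4 against 261 to 276 elsewhere, and TCF7 of CD8A sp clones of 2 to 4 cells at 152 CPM in dog 3 against 164 to 166. LEF1 of CD4 sp cells with CXCR3, the Th1-type chemokine receptor gene, was at 256 CPM in dog 1 and 156 to 162 in dogs 2 to 4. Both LEF1 levels were those of the dog with the highest LEF1 in CCR7+ cells.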

How the results depend on the processing

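Values here are log2 fold changes with edgeR's adjusted p, or DESeq2's where named, in brackets, and the cause of a lost or gained call was not tested unless stated. Of 416 alternative values of the members' folds 365 kept their direction and side of the threshold, 24 passed it newly, 19 missed it and 8 changed sign.

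Adding the dog as a replicate block, the paired fit, brought past the threshold TCF7 at 0.71 (1.61e-07) and LEF1 at 1.01 (7.77e-07) for CCR7 in CD4 sp cells, LEF1 at -0.78 (9.76e-12) for GZMB in CD4 sp, TCF7 at 0.89 (0.000646) for TOX in CD8A sp and at -0.39 (0.00419) for expansion in CCR7- GZMB- CD4 sp cells, and the lineage differences of LEF1 at -1.40 (0.0002) for CCR7, of TCF7 at 1.07 (0.00134) and LEF1 at 1.12 (0.033) for GZMB, and of TCF7 at -0.86 (0.0313) for TOX. The block changed no other call of TCF7 or LEF1.

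In DESeq2 TCF7 passed for CCR7 in CD4 sp at 0.70 (0.000178), TOX in CD8A sp at 0.89 (0.000393), expansion in CCR7- GZMB- CD4 sp at -0.44 (0.0433) and the GZMB difference at 1.10 (0.00288), while LEF1 missed it for expansion in CCR7- GZMB- CD4 sp at -1.42 (0.0692). Without the filter on low counts TCF7 passed for TOX in CD8A sp at 0.88 (0.0224) and expansion in CCR7- GZMB- CD4 sp at -0.45 (0.0434). With 1 productive TRB per cell TCF7 passed for CCR7 in CD4 sp at 0.73 (0.0477), TOX in CD8A sp at 0.998 (0.0305) and the GZMB difference at 1.15 (0.0309).

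With at least 2 UMIs at the gate TCF7 passed for CCR7 in CD4 sp at 0.79 (0.0498), TOX in CD8A sp at 1.14 (0.00106) and the TOX difference at -1.29 (0.0145), missed it for GZMB in CD4 sp at -2.80 (0.232), and changed sign for TOX in CD4 sp at -0.15 (0.743) and the GZMB difference at -0.51 (0.85), as did LEF1 in the latter at -0.26 (0.963). Only dog 4 then had 20 GZMB+ CD4 sp cells, and the median of all genes moved by up to 0.413 for GZMB in CD4 sp. Thinning to 2000 UMIs gave TCF7 at -0.65 (0.451) for GZMB in CD4 sp, 0.56 (0.194) for TOX in CCR7- GZMB- CD8A sp and -0.65 (0.0111) for expansion in CCR7- GZMB- CD4 sp, LEF1 at 0.045 (1) for TOX in CD4 sp, and LEF1 minus TCF7 folds of 0.91 for CCR7 and 0.49 for GZMB (turned) in CD8A sp and -0.42 for GZMB in CD4 sp, the last over 3 dogs.

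LEF1 for expansion in CCR7- GZMB- CD4 sp was at -1.48 (0.0501) without the mitochondrial limit, -1.44 (0.0633) with cells of several TRBs kept and -1.48 (0.0563) without library 1 cells carrying a TRB of library 4, an alternative added after seeing the data.

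Leaving out each dog in turn, where this ended, gained or turned a call, gave for CD4 sp against CD8A sp 1.42 to 1.63 in LEF1. For CCR7 in CD4 sp it gave 0.64 to 0.80 in TCF7, for GZMB in CD4 sp -0.77 to -0.69 in TCF7, for TOX in CD4 sp -0.0051 to 0.069 in TCF7, and for TOX in CD8A sp 0.77 to 1.02 in TCF7 and -0.43 to 0.030 in LEF1. For expansion it gave -0.75 to -0.61 in TCF7 and -1.83 to -1.48 in LEF1 of CD4 sp, -1.74 to -1.25 in LEF1 of CCR7- GZMB- CD4 sp and -0.042 to 0.35 in TCF7 of CCR7- GZMB- CD8A sp cells. The LEF1 TOX difference ranged from -0.084 to 0.30.

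The number of genes called ranged over all alternatives from 705 to 2744 for CD4 sp against CD8A sp, from 0 to 2232 for CCR7 in CD4 sp, from 264 to 1379 for CCR7 in CD8A sp, from 0 to 911 for GZMB in CD4 sp, from 245 to 1614 for GZMB in CD8A sp, from 0 to 663 for TOX in CD4 sp, from 0 to 501 for TOX in CD8A sp, from 5 to 331 for TOX in CCR7- GZMB- CD8A sp, from 1 to 1459 for expansion in CD4 sp, from 24 to 544 for expansion in CD8A sp, from 1 to 597 for expansion in CCR7- GZMB- CD4 sp, from 7 to 86 for expansion in CCR7- GZMB- CD8A sp, from 0 to 246 for the CCR7 difference, from 0 to 190 for the GZMB difference, from 0 to 18 for the TOX difference, from 0 to 36 for the expansion difference. Of 90 calls of listed genes 33 held without each dog and 28 in every alternative run. The GZMB+ CD4 sp sums rest on 32 to 103 cells a dog, and gates on 1 UMI place cells with undetected RNA in the negative group.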

Other observations

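Values of some groups belonged to no comparison and were not tested. Among CCR7+ GZMB- cells TOX+ cells held TCF7 at 501 ± 16.5 CPM in CD4 sp and 474 ± 77.4 in CD8A sp cells, and TOX- cells at 435 ± 40.7 and 363 ± 41.6 CPM (SD, n = 4 each). LEF1 of the same cells was at 521 ± 187 CPM with and 507 ± 172 CPM without TOX in CD8A sp cells. Within CCR7- GZMB+ CD8A sp cells TCF7 was at 171, 199, 103 and 161 CPM in TOX+ and 74.5, 85.96, 78.2 and 51.2 CPM in TOX- cells of dogs 1, 2, 3 and 4, higher with TOX in 4 of 4 dogs, while LEF1 was at 39.02, 47.1, 59.6 and 49.8 and 47.3, 51.3, 43.1 and 54.4 CPM. Cells with neither CD4 nor CD8A, 11510 in number and with a median of 3496 UMIs, held TCF7 at 280.1 ± 45.7 and LEF1 at 357 ± 190.3 CPM. Of 14 CD4 sp clones the one with the highest TCF7, from dog 4, had 662 CPM of it.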
